A study of Mus musculus with 6 samples.

Results

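The macrophage identity and polarization genes described here, 10 in all, were followed in endometriosis-like lesions of niclosamide-treated and vehicle-treated mice. The 10 were chosen by name: the growth factor gene *Csf1*, its receptor gene *Csf1r*, the general markers *Cd68*, *Mrc1* and *Lyve1*, the peritoneal macrophage genes *Gata6* and *Icam2*, and the polarization genes *Retnla*, *Arg1* and *Nos2*. All 10 were found among the 41786 genes counted, and all 10 were among the 17364 that passed the filter on low counts. Each lesion came from the uterus of a 6-week-old GFP-positive C57BL/6 female and was sutured onto the wall of the peritoneum. Recipients were wild-type females aged 8 weeks, at the same cycle stage as their donors. Dosing started 3 days later. The niclosamide group (3 libraries, each from 1 mouse) received 200 mg/kg of the anthelmintic drug daily for 3 weeks, and the vehicle group (3 libraries) received vehicle over the same time. Vehicle 1 was pooled from 4 mice, while vehicle 2 and 3 came from 1 mouse each. Lesions were collected in diestrus and separated from recipient tissue. Whole lesions were sequenced, and gene counts do not tell donor from recipient macrophages.

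Macrophages depend on CSF1, which many tissue cells secrete and which signals through the receptor tyrosine kinase CSF1R on the macrophage surface. CD68 is a lysosomal glycoprotein of macrophages, MRC1 (CD206) a mannose receptor of many resident macrophages, and LYVE1 a hyaluronan receptor shared by some resident macrophages and lymphatic endothelium. In the mouse peritoneal cavity, large resident macrophages carry ICAM2 and depend on the transcription factor GATA6. IL-4 and IL-13 induce *Retnla* and *Arg1* in mouse macrophages, a state called alternative activation, and interferon-gamma with microbial ligands induces *Nos2*, a mark of classical activation. Macrophages are a regular component of endometriotic lesions.

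Libraries held 27797121 to 34797000 counts, and values are given as CPM (TMM-scaled counts per 1000000) or, where genes are set against each other, as RPKM (CPM per kilobase of exon). The lowest member count was 177, for *Nos2* in vehicle 2, a share of 5.09 CPM before scaling (95% Clopper-Pearson interval 4.36 to 5.89, counting error only). The uterine hormone receptor gene *Esr1* was detected in every library, at 128 to 268 CPM with niclosamide and 229 to 360 CPM with vehicle. Libraries also differed in other tissues. The summed level of 10 skeletal muscle genes ran from 852 to 34906 CPM with niclosamide and from 4981 to 12206 CPM with vehicle, with niclosamide 1 highest and niclosamide 2 lowest. For 8 smooth muscle genes it was 1819 to 4394 CPM with niclosamide and 5285 to 7592 CPM with vehicle, without overlap. Structural RNAs, whose level depends on RNA quality and library preparation, had a log2 fold change below 0 in 5 of 5 tested. The groups did not overlap in 4 of the 5, all lower with niclosamide (12.3% of all genes did not overlap). The unadjusted edgeR quasi-likelihood p was under 0.05 in 3 of the 5 (6.92% of all genes). Of the 5 tested, edgeR called 0 and DESeq2 called 1, *Rpph1* (DESeq2 called 1.22% of all genes with an adjusted p). *Rn7sk*, for example, averaged 4.26 CPM with niclosamide and 26.3 CPM with vehicle. The part of these differences in the results below was not tested.

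Per length of exon, *Cd68* had the highest level of the 10 genes, with a mean of 115 RPKM ± 49.3 (SD over 6 libraries). *Arg1* followed with 91.3 RPKM, *Csf1r* with 69.9, *Retnla* with 48.4, *Mrc1* with 30.8, *Lyve1* with 21.9, *Csf1* with 21.5, *Icam2* with 10.7, *Gata6* with 6.83 and *Nos2* with 6.44. The ranges over libraries overlapped for each of the 9 adjacent pairs. Within libraries, *Mrc1* was above *Lyve1* and *Csf1* above *Icam2* in 6 of 6, and the other 7 pairs kept their order in 4 or 5 of 6. The most even gene was *Icam2*, whose highest library had 1.70 times the level of its lowest. *Nos2* spanned 14.98-fold, *Retnla* 11.97-fold and *Arg1* 5.84-fold, so the polarization genes varied most between lesions.

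Niclosamide lesions had higher mean levels of *Nos2*, *Arg1*, *Cd68*, *Csf1r*, *Gata6* and *Icam2*, a nearly equal level of *Mrc1*, and lower means of *Csf1*, *Lyve1* and *Retnla*. None of the 10 differences passed the threshold of a Benjamini-Hochberg adjusted p under 0.05 in edgeR's quasi-likelihood test, and 0% of all 17364 genes did (0 genes). Before adjustment, p was under 0.05 for 6.92% of genes (1202), and *Nos2* was the only member among them. DESeq2 called 195 genes, 1.22% of those with an adjusted p, none of them a member, and limma-voom called 0 genes (0%). The log2 fold change was above 0 in 7 of 10 members, with a median of 0.40, against 53.7% of all genes tested and a median of 0.02. The groups did not overlap in 1 member, *Icam2*, which was higher with niclosamide, against 12.3% of all genes (5.9% higher and 6.37% lower).

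**Figure D1:**
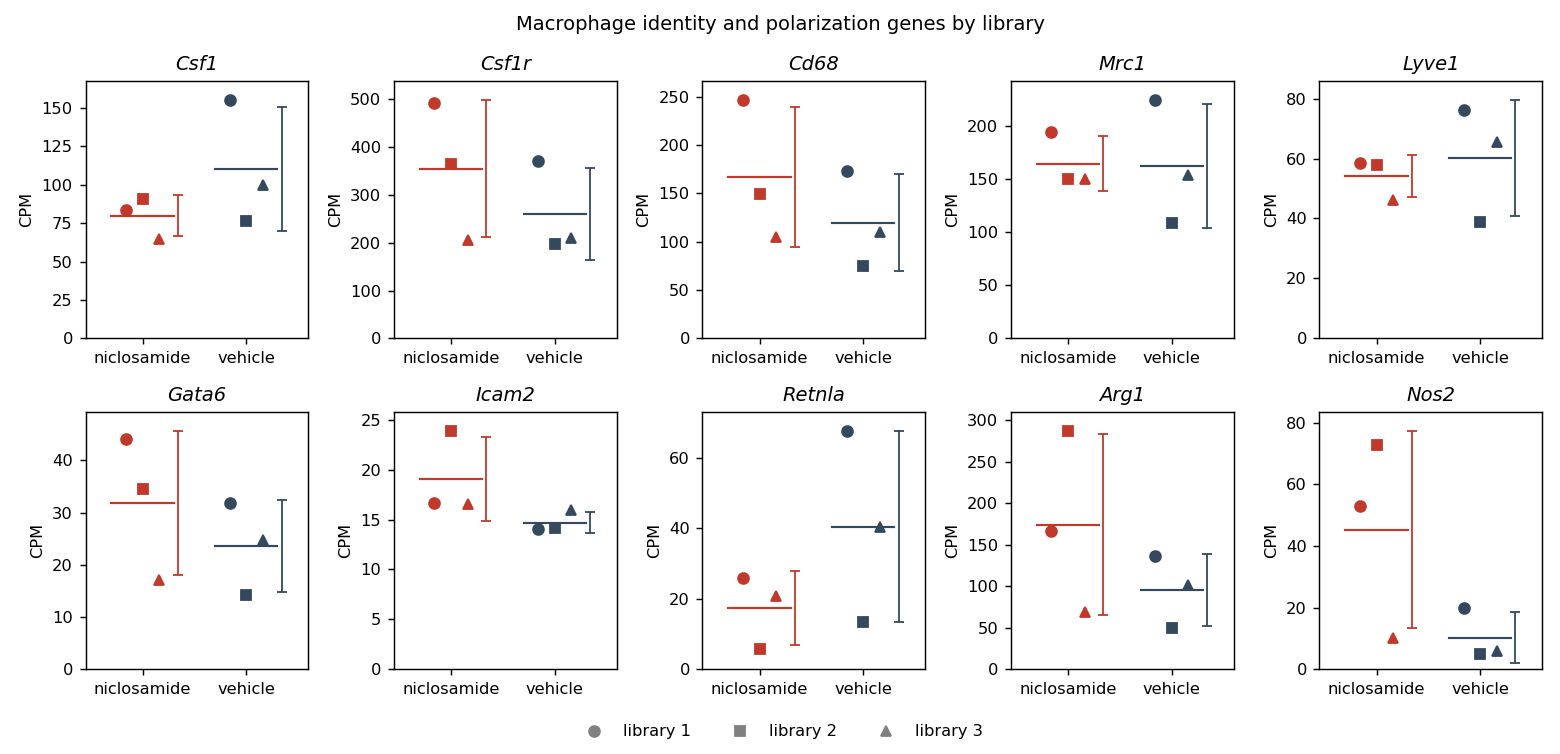
CPM of each of the 10 genes (y axis, linear) in the niclosamide and vehicle libraries, with 1 point per library, the group mean as a line and the SD as a bar (n = 3 per group). Niclosamide 1 and 2 lie far above the other libraries for *Nos2*, while niclosamide 3 falls among the vehicle libraries in most panels.

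*Csf1* (chromosome 3, 107741048 to 107760469, GRCm38.p3) had 83.4, 90.9 and 64.9 CPM in niclosamide 1 to 3, against 155, 76.2 and 99.9 CPM in vehicle 1 to 3. The groups overlapped, because vehicle 2 lay below niclosamide 1 and 2. Its log2 fold change was -0.47 ± 0.28 (SE; adjusted p = 0.85), and it was -0.14 without vehicle 1, the pooled library. In whole tissue, more cells of a type and more RNA per cell cannot be told apart, here and in all results that follow. *Csf1r*, on chromosome 18, had 493, 366 and 207 CPM with niclosamide and 370, 198 and 210 CPM with vehicle. Niclosamide 1 was highest, and niclosamide 3 stood within the vehicle range. For the receptor it was 0.45 ± 0.39 (SE; adjusted p = 0.94), 0.14 without niclosamide 1 and 0.80 without vehicle 1.

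The other CSF genes gave no call. Of 8 genes on a list of the second CSF1R ligand, the GM-CSF and G-CSF systems, and a myeloid factor and adaptor, 4 were above 0 and 4 below, and the median log2 fold change was 0.01. *Il34*, which encodes the second ligand of CSF1R, was far lower than *Csf1*, at 8.49 to 12.9 CPM with niclosamide and 7.99 to 16.7 CPM with vehicle. *Csf3r*, the G-CSF receptor gene of neutrophils, was the only one of the 8 whose groups did not overlap (12.3% of all genes did not), at 52.8 to 86.2 CPM with niclosamide and 115 to 143 CPM with vehicle (log2 fold change -0.82 ± 0.21 SE, adjusted p = 0.59).

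*Cd68* (chromosome 11, 69664213 to 69666170) had 246, 149 and 104 CPM with niclosamide, against 174, 74.7 and 110 CPM with vehicle. Its order of libraries was close to that of *Csf1r*, with niclosamide 1 at the top and vehicle 2 at the bottom. Niclosamide over vehicle, the log2 fold change was 0.48 ± 0.41 (SE; adjusted p = 0.94), 0.08 without niclosamide 1 and 0.85 without vehicle 1. *Mrc1* (chromosome 2, 14229414 to 14332023) had 194, 150 and 150 CPM with niclosamide and 225, 109 and 155 CPM with vehicle. Here the 2 extreme libraries were both vehicle, and the niclosamide values lay between them. Its log2 fold change was 0.02 ± 0.28 (SE; adjusted p = 1.0), with a 95% interval of 0.64-fold to 1.61-fold. *Lyve1* (chromosome 7, 110850607 to 110862953) had 58.5, 57.9 and 46.2 CPM with niclosamide and 76.2, 38.7 and 65.6 CPM with vehicle. It also had its highest and lowest values with vehicle (log2 fold change -0.15 ± 0.26 SE, adjusted p = 0.97). Without vehicle 1, the pooled library, the direction turned, to 0.055, and without vehicle 2 the value was -0.39. Its 95% interval on the log2 scale ran from -0.77 to 0.47.

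Other macrophage genes stood mostly above 0, as *Csf1r* and *Cd68* did. On a list of 20 further general macrophage genes, 18 had a log2 fold change above 0, with a median of 0.47, and 0 passed the threshold. The groups did not overlap in 4 of the 20 (12.3% of all genes). *Mertk*, a receptor for dying cells, averaged 67.0 CPM with niclosamide and 33.5 CPM with vehicle, and *Msr1*, a scavenger receptor gene, averaged 110 and 62.6 CPM in the same order. *Aif1*, which encodes the macrophage protein IBA1, averaged 105 CPM with niclosamide and 66.3 CPM with vehicle (adjusted p = 0.59). The summed level of the list was 14754, 11516 and 7122 CPM with niclosamide and 8621, 4939 and 6363 CPM with vehicle. The lysozyme gene *Lyz2* and the cathepsin gene *Ctss* made up the largest shares of that sum, and niclosamide 3 stood within the vehicle range.

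Genes that accompany *Mrc1* and *Lyve1* in resident tissue macrophages did not stand above 0. Of 12 on that list, 4 were above 0 and 8 below, the median log2 fold change was -0.12, and there were 0 calls. *Gas6*, a bridging ligand for uptake of dying cells, averaged 293 CPM with niclosamide and 344 CPM with vehicle. The chemokine gene *Ccl8* averaged 231 CPM with niclosamide and 159 CPM with vehicle (adjusted p = 0.80). *Igf1*, which encodes a growth factor, had 202, 201 and 774 CPM with niclosamide and 158, 331 and 219 CPM with vehicle, so niclosamide 3 alone stood above the vehicle range. The 8 uterine stroma markers summed to 2439.5, 2930 and 4523 CPM with niclosamide and 4296, 5133 and 4401 CPM with vehicle. The part of stroma in the *Igf1* values was not tested. Lymphatic endothelium, the other source of *Lyve1*, was measured beside it. Its 7 markers other than *Lyve1* summed to 457 to 569 CPM with niclosamide and 361 to 641 CPM with vehicle, none of them at 0. *Prox1*, the lymphatic identity factor gene, had 24.6, 14.7 and 19.1 CPM with niclosamide and 17.4, 12.3 and 25.7 CPM with vehicle. The part of lymphatic vessels in the *Lyve1* values was not tested.

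*Gata6*, on chromosome 18, had 44.2, 34.4 and 17.0 CPM with niclosamide and 31.8, 14.2 and 24.7 CPM with vehicle. Niclosamide 1 was highest and vehicle 2 lowest, as for *Csf1r* and *Cd68*, and the groups overlapped (log2 fold change 0.44 ± 0.42 SE, adjusted p = 0.95). Without niclosamide 1 that value was 0.12, and without niclosamide 3 it was 0.75. *Icam2* (chromosome 11, 106377656 to 106388122) had 16.7, 23.9 and 16.5 CPM with niclosamide, against 14.0, 14.1 and 15.97 CPM with vehicle. All niclosamide libraries lay above all vehicle libraries, but niclosamide 3 exceeded vehicle 3 by little. The log2 fold change was 0.37 ± 0.20 (SE; adjusted p = 0.80). Without niclosamide 2, the highest library, it was 0.16.

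The remaining genes of large peritoneal macrophages were split. Of 13 on the list, 8 were above 0 and 5 below, the median log2 fold change was 0.02, and there were 0 calls. Several of them were low in all lesions: *Vsig4*, a complement receptor gene, reached 2.82 CPM with niclosamide and 3.86 CPM with vehicle at most. *Timd4*, a phosphatidylserine receptor gene, had 12.5, 3.68 and 2.08 CPM with niclosamide and 13.4, 1.29 and 1.16 CPM with vehicle. Its high libraries were niclosamide 1 and vehicle 1, and the groups overlapped. *F10*, the coagulation factor X gene, averaged 39.6 CPM with niclosamide and 19.7 CPM with vehicle (adjusted p = 0.80). *Garnl3* was the only gene of the 13 whose groups did not overlap (12.3% of all genes did not). It had 2.71 to 3.57 CPM with niclosamide and 4.01 to 4.78 CPM with vehicle (adjusted p = 0.78).

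*Gata6* and *Icam2* are also expressed outside macrophages, so those cells' markers were measured. The 8 mesothelium markers summed to 155, 205 and 124 CPM with niclosamide and 286, 97.2 and 150 CPM with vehicle, with none at 0. Of the 8, 3 were above 0 and 5 below (median log2 fold change -0.04). The 13 markers of blood endothelium other than *Icam2* summed to 876, 725 and 919 CPM with niclosamide and 815, 854 and 1093 CPM with vehicle, again with none at 0. Of these, 3 were above 0 and 10 below (median -0.14), whereas *Icam2* itself was above 0. The part of mesothelium and endothelium in the 2 genes was not tested.

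*Retnla* (chromosome 16, 48842552 to 48844461) encodes RELM-alpha, a secreted protein of alternatively activated mouse macrophages. It had 26.0, 5.66 and 20.7 CPM with niclosamide, against 67.7, 13.4 and 40.3 CPM with vehicle. The 2 highest values were vehicle 1 and 3 and the lowest was niclosamide 2, but vehicle 2 lay below niclosamide 1 and 3. The log2 fold change was -1.21 ± 0.73 (SE; adjusted p = 0.85). It was -0.62 without vehicle 1 and -0.81 without niclosamide 2.

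*Retnla* belongs to the resistin-like gene family, and any reads that align to more than 1 member would be missing from its counts. *Retnlg*, a neutrophil-expressed neighbour on chromosome 16, had 2.99, 5.16 and 6.28 CPM with niclosamide and 17.0, 2.44 and 16.8 CPM with vehicle. *Retnlb* had no count in any library. *Retn*, the resistin gene of mouse adipocytes, had 31.4, 0.340 and 1.59 CPM with niclosamide and 16.4, 7.09 and 1.35 CPM with vehicle. Its order of libraries was that of neither *Retnla* nor *Retnlg*. *Retnla* is made in adipose tissue too, and the 7 adipocyte markers summed to 731, 44.97 and 81.9 CPM with niclosamide and 350, 155 and 75.8 CPM with vehicle. Over all libraries, adipocyte genes were highest in niclosamide 1 and *Retnla* in vehicle 1, and both were lowest in niclosamide 2. Within the niclosamide group both fell in the order niclosamide 1, 3 and 2. Within the vehicle group both were highest in vehicle 1, but vehicle 2 and 3 stood in opposite order. The part of adipocytes in the *Retnla* values was not tested.

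Promoters of 4 members were found in the RefSeq table used here (GRCm38.p6, 250 bases before to 50 after the annotated start). Those of *Retnla* and *Mrc1* are printed because both genes are used as marks of alternative activation and yet had different profiles over these lesions, and that of *Retnlg* shows how alike the neighbouring paralogs are. Capitals mark TTC and GAA with any 4 bases between them, a STAT6-type site, in *Retnla* and *Retnlg*, and GAGGAA, a core bound by the myeloid factor PU.1, on either strand in *Mrc1*.
Retnla, chr16:48842359-48842658, plus strand: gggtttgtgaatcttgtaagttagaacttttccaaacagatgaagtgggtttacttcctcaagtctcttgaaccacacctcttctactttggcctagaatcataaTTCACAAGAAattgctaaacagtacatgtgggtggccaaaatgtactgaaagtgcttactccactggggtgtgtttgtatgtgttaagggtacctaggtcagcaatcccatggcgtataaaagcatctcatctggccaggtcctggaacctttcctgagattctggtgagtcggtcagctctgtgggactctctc
Retnlg, chr16:48872358-48872657, plus strand: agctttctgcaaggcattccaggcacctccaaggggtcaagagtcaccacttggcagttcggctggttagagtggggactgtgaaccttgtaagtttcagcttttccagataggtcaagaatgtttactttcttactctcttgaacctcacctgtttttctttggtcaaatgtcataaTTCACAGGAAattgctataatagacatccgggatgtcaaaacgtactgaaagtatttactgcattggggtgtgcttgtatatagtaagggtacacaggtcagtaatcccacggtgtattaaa
Mrc1, chr2:14229164-14229463, plus strand: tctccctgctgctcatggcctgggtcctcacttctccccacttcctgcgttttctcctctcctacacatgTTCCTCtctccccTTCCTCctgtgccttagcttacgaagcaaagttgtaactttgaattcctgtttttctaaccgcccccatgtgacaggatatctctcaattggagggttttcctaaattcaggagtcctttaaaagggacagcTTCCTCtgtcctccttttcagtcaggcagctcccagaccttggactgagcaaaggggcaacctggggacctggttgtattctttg

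The *Retnla* and *Retnlg* windows were identical at 180 of 225 aligned bases (80%), with 150 further positions in gaps. Each held 1 match to the STAT6-type site, which reads the same on both strands, at -145 to -136 in *Retnla* and -72 to -63 in *Retnlg*. Positions count from each gene's own annotated start. In both windows the bases cataa stand before the site and attgcta after it, so the different positions do not mean different surroundings. Such a match is found in 6.95% of 32851 mouse promoter windows of the same length. The *Mrc1* window held 3 matches to GAGGAA on either strand and none to the STAT6-type site, and 28.3% of all windows held GAGGAA at least once. The *Retnla* window also held 1 match to GAGGAA, printed in lower case. The matches do not overlap each other in these windows, and a match describes letters, not binding.

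*Arg1* (chromosome 10, 24915207 to 24927470) encodes arginase 1, which turns arginine into ornithine and urea. It had 166, 287 and 69.4 CPM with niclosamide, against 136, 49.1 and 101 CPM with vehicle. Niclosamide 2 was far above the rest, while niclosamide 3 was the second lowest of all libraries. *Arg1* had a log2 fold change of 0.87 ± 0.58 (SE; adjusted p = 0.88), and of 0.29 without niclosamide 2.

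*Nos2* (chromosome 11, 78920859 to 78960232) encodes the inducible nitric oxide synthase, which uses the same arginine to make nitric oxide. It had 52.8, 72.8 and 10.1 CPM with niclosamide, against 19.9, 4.86 and 5.97 CPM with vehicle. Niclosamide 1 and 2 were above every vehicle library, and niclosamide 3 was below vehicle 1. The log2 fold change was 2.15 ± 0.85 (SE), a 4.43-fold higher level (95% interval 1.07 to 18.3), with an unadjusted p of 0.043 and an adjusted p of 0.70 (edgeR quasi-likelihood). The vehicle mean was 10.2 CPM, and 5.42 CPM without vehicle 1. Without vehicle 1 the log2 fold change was 3.06, and without niclosamide 2 it was 1.5996. DESeq2 gave an adjusted p of 0.16 and an unadjusted p of 0.0045, and limma-voom an unadjusted p of 0.080. The unadjusted p of edgeR's quasi-likelihood test was 0.091 without a filter on low counts. It was 0.086 without niclosamide 1, 0.11 without niclosamide 2 and 0.12 without vehicle 2 or without vehicle 3. Without niclosamide 3 it was 0.011, and without vehicle 1 it was 0.017. With the other scalings and the replicate block it was 0.0424 to 0.0499.

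**Figure D2:**
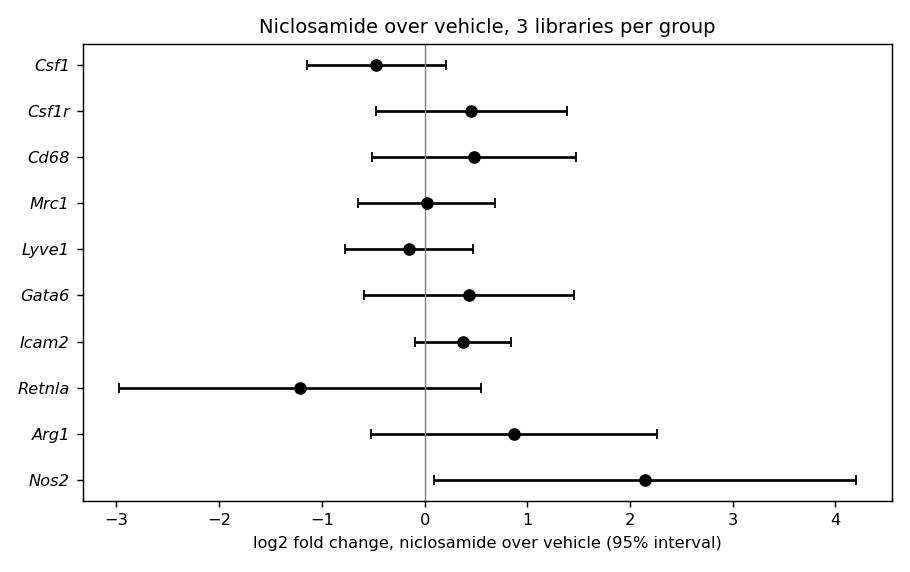
Log2 fold change of the 10 genes, niclosamide over vehicle (x axis), with 95% intervals from edgeR's quasi-likelihood fit (3 libraries per group). The interval of *Nos2* lies above 0 before adjustment over all genes, and the other 9 include 0.

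Other genes of classical activation were mostly above 0 as well. Of 19 such genes other than *Nos2*, 14 had a log2 fold change above 0, with a median of 0.62, and 0 passed the threshold. An unadjusted p under 0.05 was found for 7 of the 19, all higher, against 6.92% of all genes. The chemokine gene *Cxcl9* averaged 672 CPM with niclosamide and 206 CPM with vehicle (edgeR adjusted p = 0.50, DESeq2 adjusted p = 6.0e-07). It was the only gene of the 19 that DESeq2 called, against 1.22% of all genes with an adjusted p. The costimulatory ligand gene *Cd86* averaged 57.6 CPM with niclosamide and 27.6 CPM with vehicle. The 5 genes below 0 included *Il1b*, at 49.6, 67.8 and 31.5 CPM with niclosamide and 144, 50.3 and 104 CPM with vehicle; it was looked at after its values were seen. The summed level of the list was 2691, 3366 and 1783 CPM with niclosamide and 1634, 1460 and 1196 CPM with vehicle, without overlap. Without *Cxcl9* it was 2127, 2451 and 1246 CPM with niclosamide and 1422, 1238 and 1011 CPM with vehicle, and the groups overlapped.

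Genes of alternative activation other than the members were evenly split. Of 10, 5 were above 0 and 5 below, the median log2 fold change was -0.01, and there were 0 calls. *Irf4*, a transcription factor gene of this state, averaged 36.3 CPM with niclosamide and 19.5 CPM with vehicle, whereas the chemokine gene *Ccl17* averaged 4.84 and 8.37 CPM in the same order. *Chil3*, often read together with *Retnla* and *Arg1*, had 10.8, 17.4 and 12.2 CPM with niclosamide and 8.42, 10.5 and 130 CPM with vehicle. Vehicle 3 alone set its mean difference.

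Among 14 cytokine and receptor genes that set polarization, 12 were tested and 10 of those were above 0, and the median log2 fold change was 0.28. *Ifng*, which encodes interferon-gamma, the inducer of *Nos2*, had 18.4, 29.4 and 5.16 CPM with niclosamide and 5.29, 4.42 and 2.14 CPM with vehicle (log2 fold change 2.16 ± 0.67 SE; edgeR adjusted p = 0.62, DESeq2 adjusted p = 0.049). As with *Nos2*, niclosamide 1 and 2 were high and niclosamide 3 was within the vehicle range. *Il4* and *Il13*, the inducers of *Retnla* and *Arg1*, were not tested, since they reached at most 0.0933 CPM with niclosamide and 0.377 CPM with vehicle, at most 12 counts in a library (the limit that a count of 0 allows is 3 counts, or 0.0862 to 0.108 CPM). Their shared receptor gene *Il4ra* averaged 232 CPM with niclosamide and 242 CPM with vehicle.

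*Arg1* and *Nos2* draw on 1 pool of arginine, and the other genes of its uptake, recycling and use were split, with 7 of 14 above 0, a median log2 fold change of -0.12 and 0 calls. The endothelial synthase gene *Nos3* averaged 11.0 CPM with niclosamide and 14.4 CPM with vehicle. *Asl*, the argininosuccinate lyase gene that helps to rebuild arginine, averaged 34.5 CPM with niclosamide and 20.5 CPM with vehicle, and was highest in niclosamide 3, where *Arg1* and *Nos2* were lowest within that group.

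**Figure D3:**
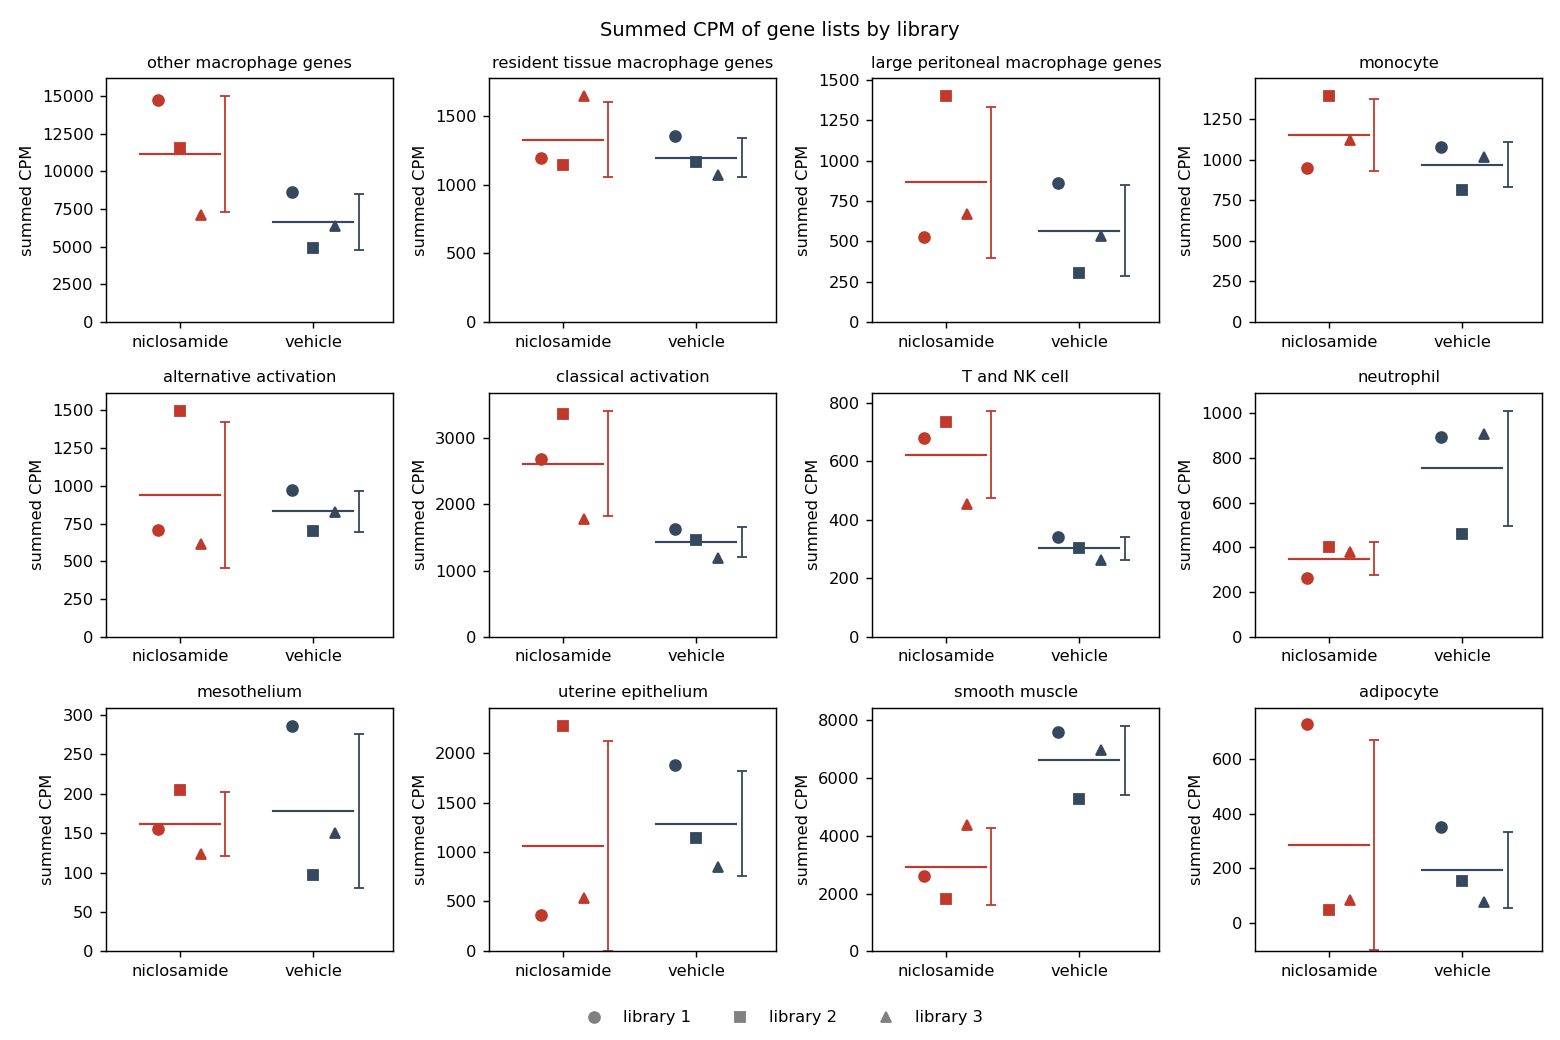
Summed CPM of 12 gene lists (y axis, linear) in each library, with the group mean as a line and the SD as a bar (n = 3 per group). The sums are apart between groups for classical activation, T and NK cell, neutrophil and smooth muscle genes, and overlap for the other 8 lists; without *Cxcl9* the classical activation sums overlap too.

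To set each gene against a macrophage marker of the same lesion, the log2 CPM of *Cd68* was subtracted within each library. With 3 libraries per group, an exact permutation test cannot give a two-sided p below 0.1. *Csf1* relative to *Cd68* was -1.56, -0.71 and -0.68 with niclosamide and -0.16, 0.03 and -0.14 with vehicle. The groups did not overlap, and the difference of -0.89 had the smallest possible p (two-sided exact permutation p = 0.1, 0.45 after adjustment over the 9 genes). Set against *Csf1r*, whose profile over the libraries was close to that of *Cd68*, the difference was -0.85, again without overlap. *Csf1* was the only gene of the 9 with the groups apart. The share of all genes that are apart on this measure was not computed. The group differences nearest to 0 were -0.05 for *Csf1r*, -0.07 for *Gata6* and -0.12 for *Icam2* (exact permutation p = 0.7 each). Differences were -0.40 for *Mrc1*, -0.58 for *Lyve1*, -1.66 for *Retnla*, 0.29 for *Arg1* and 1.54 for *Nos2*, all with overlapping groups and exact permutation p values of 0.2 to 0.8. Without niclosamide 1 the difference was -0.20 for *Mrc1* and -0.31 for *Lyve1*. Without niclosamide 2 it was -1.02 for *Retnla*, -0.22 for *Arg1* and 0.96 for *Nos2*. Without niclosamide 3 that of *Mrc1* was -0.63.

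**Figure D4:**
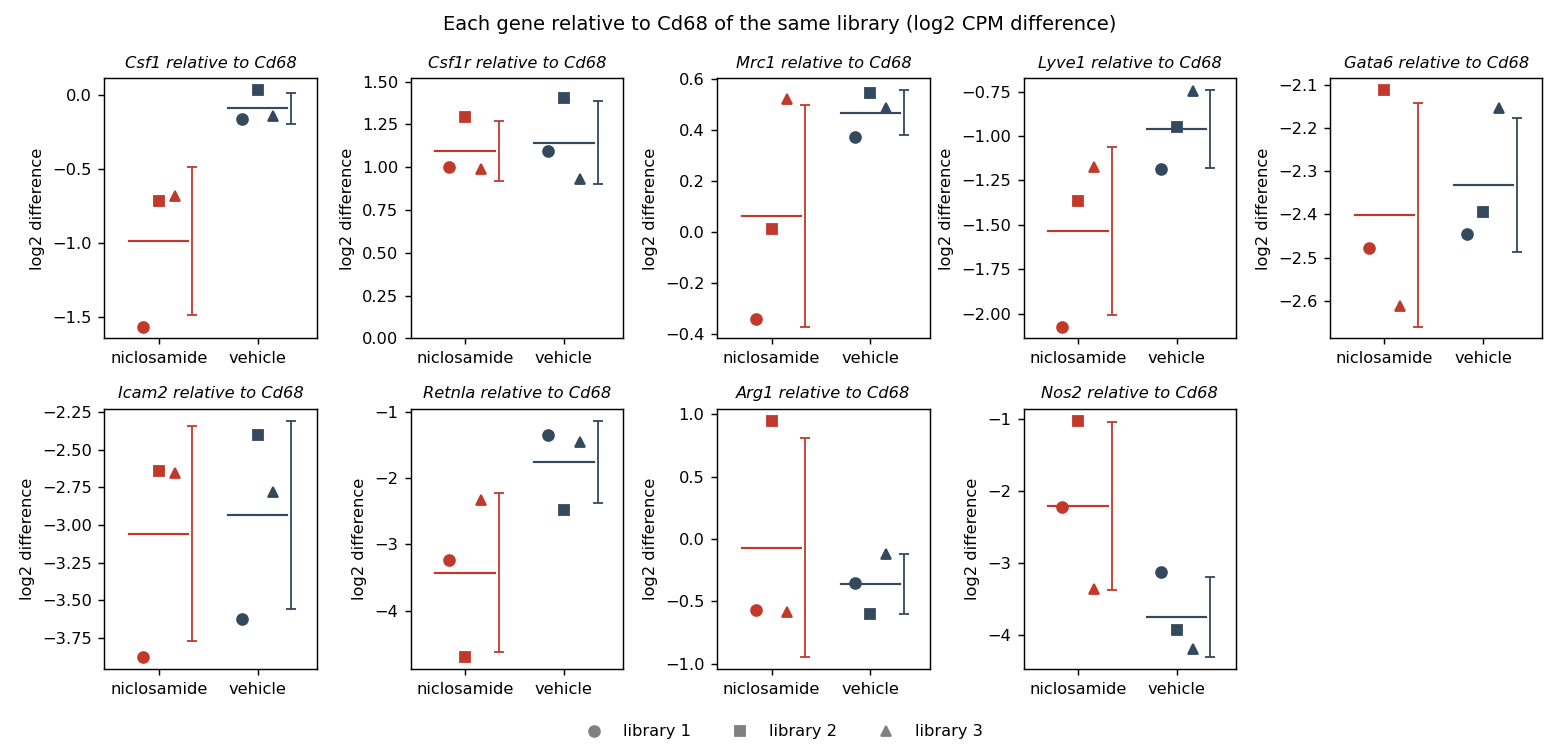
Log2 CPM of 9 genes minus log2 CPM of *Cd68* in the same library (y axis), with the group mean as a line and the SD as a bar (n = 3 per group). For *Csf1* every niclosamide library lies below every vehicle library; the other panels overlap.

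The balance of polarization genes within a lesion was also compared, in pairs picked after the member values had been seen. *Arg1* relative to *Nos2* was 1.65, 1.98 and 2.77 log2 units with niclosamide and 2.77, 3.32 and 4.07 with vehicle, so niclosamide 3 and vehicle 1 all but met. *Retnla* relative to *Nos2* was -1.02, -3.67 and 1.03 with niclosamide and 1.76, 1.45 and 2.74 with vehicle, without overlap. Since the values prompted the choice of pairs, these are descriptions with no test. *Arg1* relative to *Retnla* was 2.67, 5.65 and 1.74 with niclosamide and 1.01, 1.87 and 1.33 with vehicle, with overlap. The 2 alternative activation genes lay furthest apart in niclosamide 2.

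The profiles of the 10 genes over the 6 libraries were compared by the root mean square difference of their log2 CPM after each was centred on its mean, where a smaller value means a closer profile. *Csf1r*, *Cd68* and *Gata6* formed the tightest set, with differences of 0.17 to 0.22. *Mrc1* and *Lyve1* were as close to each other, at 0.17, and *Csf1* was nearer to *Lyve1* (0.21) than to its own receptor (0.50). *Retnla* and *Nos2* were furthest apart, at 2.14. *Arg1* was nearest to *Gata6* (0.42), *Csf1r* (0.52) and *Cd68* (0.55). *Nos2* (0.80) and *Retnla* (1.55) were the 2 members furthest from *Arg1*. These are descriptions over 6 libraries, with no test. All genes of a library share its depth and tissue makeup, which differed between libraries.

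**Figure D5:**
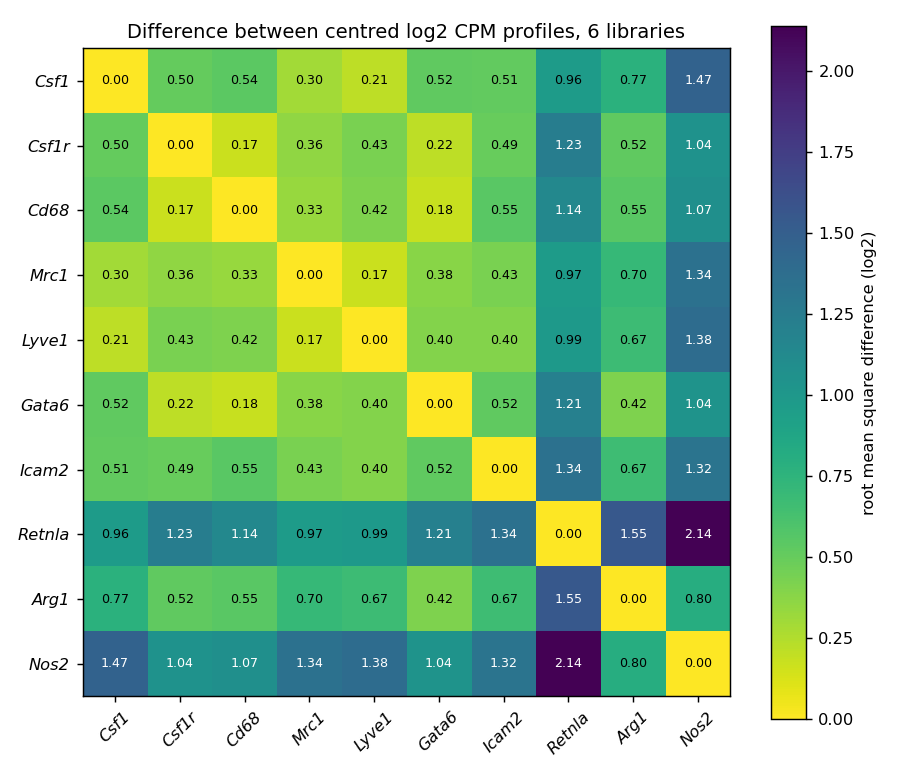
Root mean square difference (log2 units, colour and printed value) between the centred log2 CPM profiles of each pair of the 10 genes over 6 libraries. *Csf1r*, *Cd68* and *Gata6* form 1 block of small values, *Mrc1* and *Lyve1* another, and *Retnla* and *Nos2* stand apart from both.

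The closest of 13078 other genes were then listed for each member whose profile spanned more than 1 log2 unit, which left out *Lyve1* and *Icam2*. *Csf1r* was closest to *Fcgr2b* (0.08), the inhibitory Fc receptor gene of myeloid and B cells, then *Slc11a1* and *Pirb*. *Cd68* was closest to *Itgb2* (0.09), the leukocyte integrin beta chain gene, then *Fth1* and *Ticam2*. *Gata6* was closest to *Trem2* (0.09), a lipid receptor gene of macrophages, then *Slc16a3* and *Slc15a3*. *Trem2* had 96.3, 79.5 and 36.2 CPM with niclosamide and 77.6, 35.5 and 53.9 CPM with vehicle, the same order of libraries as *Gata6*.

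For *Csf1* the closest genes were *Loxl1* (0.04), which encodes an elastin cross-linking enzyme, *Ddah1* and *Rspo1*. *Loxl1* had 136, 142 and 103 CPM with niclosamide and 242, 126 and 168 CPM with vehicle. For *Mrc1* they were *Cdon* (0.04), *Gabra3* and *Abi3bp*. Among the polarization genes, *Nos2* was closest to *Ly6i* (0.35), then *Ifng* and *Mzb1*, the last a gene of antibody-secreting cells. *Arg1* was closest to *Serpina3i* (0.27), *Pou2af1* and the heme oxygenase gene *Hmox1*, and *Retnla* to *Adamts8* (0.45), *Cyp4b1* and the desmin gene *Des*. The values for these 3 members were larger than that of *Loxl1* for *Csf1*. This measure can grow with the span of a profile, so its size does not rank how well the shapes match. The span was 3.89 log2 units for *Nos2*, 3.57 for *Retnla* and 2.55 for *Arg1*, against 1.26 for *Csf1*.

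Other leukocytes of the lesions were measured beside the macrophage genes. Monocyte genes were above 0 in 7 of 9, and the median log2 fold change was 0.22. *Ly6c2*, a marker of inflammatory monocytes, averaged 87.9 CPM with niclosamide and 37.3 CPM with vehicle (adjusted p = 0.60). The chemokine receptor gene *Ccr2* averaged 246 and 179 CPM in the same order (adjusted p = 0.60). Both were without overlap, as were 12.3% of all genes. The 11 T and NK cell markers summed to 454 to 736 CPM with niclosamide and 263 to 340 CPM with vehicle, and all 11 were above 0. The 11 neutrophil markers summed to 265 to 403 CPM with niclosamide and 458 to 909 CPM with vehicle, and 9 were below 0. Dendritic cell markers, which overlap in part with macrophage genes, were above 0 in 9 of 10 (median 0.27). Eosinophil and mast cell markers summed to 47.4 to 74.6 CPM with niclosamide and 52.6 to 68.0 CPM with vehicle. No marker of these lists passed the threshold in edgeR, whereas DESeq2 called 5 of the 11 T and NK cell markers and 4 of the 11 neutrophil markers. DESeq2 also called 2 of 6 eosinophil and mast cell markers tested, and 1.22% of all genes with an adjusted p. These 2 went in opposite directions. *Prg2* averaged 12.7 CPM with niclosamide and 2.69 CPM with vehicle, whereas *Siglecf* averaged 3.61 and 10.3 CPM in the same order. The part of all these leukocytes in the members' values was not tested.

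Markers of other tissues were measured as well. The 8 uterine epithelium markers were all below 0 (median -0.31) and summed to 361, 2282 and 529 CPM with niclosamide and 1882, 1137 and 844 CPM with vehicle, and the 8 uterine stroma markers were below 0 in 5 (median -0.20). Smooth muscle markers were below 0 in 8 of 8 (median -1.27), and all 10 skeletal muscle and all 7 adipocyte markers were above 0 (medians 0.76 and 0.42) with overlapping groups. In these lists, too, 0 genes passed the threshold.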

How the data were processed

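Stranded RNA-seq of 6 lesion libraries was used. The authors deposited raw counts of reads per gene. These were made by featureCounts 1.4.6-p4 with the reverse-stranded option, from STAR alignments and the GRCm38.p3 exons, per the file headers. No option to keep reads that align to several places appears there. Other tools in the submitters' processing notes are Trimmomatic 0.33, bcl2fastq 1.8.4, edgeR 3.12.0 and, for the aligner, version 2.4.2a.

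Here, genes were kept by filterByExpr (minimum count 10, minimum total 15) and scaled by TMM in edgeR 4.0.16 (R 4.3.3). The robust quasi-likelihood fit had 1 factor, the group, with Benjamini-Hochberg adjustment over all genes tested. Fold changes put niclosamide over vehicle; SE is the size of the log2 value divided by the root of F. Within-library differences used log2 CPM with a prior count of 2. RPKM used the exon length in the deposited count files. The procedure was tested on simulated counts.

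The members, gene lists and tests were chosen with earlier results of these data known. All members are described. From each list, the genes named are among the 3 with the smallest p or the 2 with the highest mean, and *Il34*, *Il4*, *Il13*, *Vsig4*, *Timd4*, *Il1b* and *Retnlb* were added after their values were seen. The symbol *Adgre1* was matched to *Emr1*. Vehicle 1 is a pool of mice, so p-values mix pooled and single-mouse spread. Alternatives included DESeq2 1.42.0, limma-voom (limma 3.58.1), other scalings and filters, a replicate block and leaving out each library.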

Additional observations from a re-analysis of the deposited data

How the results depend on the processing

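Across 13 alternatives for each of the 10 genes, 126 of 130 settings kept the direction, and 0 passed an adjusted p of 0.05. The log2 fold change of *Mrc1* ranged from -0.20 to 0.32 and that of *Lyve1* from -0.39 to 0.055 when 1 library was left out, and these 2 turned direction. Relative to *Cd68*, *Gata6* ranged from -0.21 to 0.036, *Icam2* from -0.47 to 0.29 and *Arg1* from -0.22 to 0.55 when 1 library was left out. DESeq2 called 195 genes and the fit without a filter on low counts 1, none of them a member, against 0 in the other alternatives, including an adjusted p under 0.10; the cause was not tested. The number of members with groups apart ran from 1 to 4 when 1 library was left out, as fewer libraries overlap less. Same-numbered libraries correlated at -0.11, -0.10 and 0.29 over genes in their deviations from the group means. Niclosamide 1 and 2 correlated best with another number, and niclosamide 3 with its own. With 3 libraries per group, these values cannot decide whether the numbers pair samples. With the replicate block 0 genes were called. The edgeR quasi-likelihood p of *Retnla* was then 0.00087 before adjustment (0.14 without the block) and 0.46 after it. The lowest member count was 177, and depth was not varied. The sum of classical activation genes without *Cxcl9* was chosen after seeing the data.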
